A study of Homo sapiens with 12 samples.

Results

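The AP-1 transcription factors followed here were 10 genes, JUN, JUNB, JUND, FOS, FOSB, FOSL1, FOSL2, ATF3, BATF, and BATF3, out of 23273 genes listed for each cell line. They were picked by gene symbol as the JUN, FOS, and BATF families together with ATF3. The rule itself uses no measured value, but this family was chosen with earlier results of these data known. From the same RNA sequencing the paper had predicted AP-1 factors, JUN among them, as top candidate regulators. Transcript levels of the 10 genes were followed in COLO858 and MMACSF, established human melanoma cell lines with mutant BRAF. Both lines are sensitive to the RAF inhibitor vemurafenib. Each line was cultured in plates with DMSO (vehicle) or with 0.2 μM vemurafenib for 24 or 48 h, giving 6 groups of 2 replicate libraries, 12 in all. The harvest time of the DMSO-treated cells is not labelled. Each line has 1 pair of DMSO libraries, which served both drug times, so the 24 and 48 h comparisons share their controls. All groups were whole cultures, in which fewer cells of one kind and less RNA per cell cannot be told apart. Values are FPKM, read fragments scaled to the length of the gene's transcript and to the size of the library. As the scale is per length, levels of different genes can be set beside each other within a line.

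By GENCODE v44 on GRCh37 all 10 are protein-coding genes. JUN (chr1:59242517-59249720, − strand), ATF3 (chr1:212738676-212794119, + strand), and BATF3 (chr1:212859759-212873182, − strand) lie on chromosome 1, with FOSL2 on chromosome 2 (chr2:28615315-28640184, + strand) and FOSL1 on chromosome 11 (chr11:65659520-65668044, − strand). FOS (chr14:75745529-75748933, + strand) and BATF (chr14:75988798-76013336, + strand) lie on chromosome 14, and JUNB (chr19:12902300-12904129, + strand), JUND (chr19:18390504-18392432, − strand), and FOSB (chr19:45971253-45978437, + strand) lie on chromosome 19.

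AP-1 factors are basic leucine zipper proteins that bind DNA as dimers. JUN proteins pair with one another or with FOS proteins, FOS proteins need a partner from the JUN proteins, and ATF3 and the BATF proteins pair mainly with JUN proteins. FOS and JUN are classical immediate early genes, switched on within minutes of growth factor or stress signals. In melanoma cells with mutant BRAF, ERK signaling keeps several of them high, and FOSL1 is a well-known output of that pathway, while c-Jun and ATF3 are also targets of the JNK and p38 stress kinases.

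The libraries listed 11679 to 11972 genes at or above 1 FPKM each, and 0 pairs of libraries held identical values. Read depth is not given and could not be worked out from FPKM, so the counting error of a single library is unknown. Melanocyte lineage markers were present in both lines: 8 of 8 were at or above 1 FPKM in each group of MMACSF and 6 or 7 of 8 in those of COLO858, where MLANA was below 1 FPKM. Their summed FPKM was 702 to 717 under DMSO and 4144 to 4149 at 48 h in COLO858, and 11160 to 11373 and 16831 to 17555 in MMACSF. Of the markers of other cell types, 0 of 4 endothelial and 1 of 5 keratinocyte genes reached 1 FPKM in both libraries of any group, with 1 or 2 of 5 immune and 1 to 3 of 5 fibroblast genes. Summed fibroblast markers were 9.14 to 11.9 FPKM under DMSO and 18.7 to 28.4 FPKM at 48 h in COLO858, and 57.8 to 79.1 and 20.1 to 28.9 FPKM in MMACSF. The part of these marker shifts in the AP-1 values was not tested.

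The sequences just before the starts of the JUN and ATF3 genes are shown because both transcripts rose in COLO858. That of JUND is shown because it carries a related octamer while its transcript passed no test without the replicate number in the fit. RefSeq promoter windows (GRCh38.p14 table), which take in the 250 bases before a gene's start, were held for 8 of the 10 genes, all but FOSL1 and BATF3. They were placed on GRCh37 by exact match and are given without the bases inside the annotated gene. On both strands, 4 motifs were searched: TGACTCA, the consensus AP-1 site, TGACGTCA, the cyclic AMP response element, TGACATCA, a variant octamer, and the CArG box, the site of serum response factor. Capitals mark the octamers that were found. TGACATCA lay on the strand of the gene, and TGACGTCA reads the same on both strands.
JUN, chr1:59249721-59249969 (- strand): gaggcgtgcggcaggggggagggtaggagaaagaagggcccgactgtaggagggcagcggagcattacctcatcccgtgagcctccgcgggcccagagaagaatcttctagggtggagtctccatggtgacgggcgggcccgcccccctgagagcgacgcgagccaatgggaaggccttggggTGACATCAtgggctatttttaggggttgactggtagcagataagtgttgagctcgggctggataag
ATF3, chr1:212738499-212738675 (+ strand): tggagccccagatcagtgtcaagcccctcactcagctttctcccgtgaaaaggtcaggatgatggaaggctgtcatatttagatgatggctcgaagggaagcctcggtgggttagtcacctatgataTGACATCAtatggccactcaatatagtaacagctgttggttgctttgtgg
JUND, chr19:18392433-18392682 (- strand): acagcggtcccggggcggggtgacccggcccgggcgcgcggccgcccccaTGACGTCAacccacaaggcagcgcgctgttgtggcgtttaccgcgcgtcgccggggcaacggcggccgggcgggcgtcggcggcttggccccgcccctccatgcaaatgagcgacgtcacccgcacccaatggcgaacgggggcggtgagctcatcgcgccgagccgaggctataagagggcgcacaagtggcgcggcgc
JUN and ATF3 each held TGACATCA, 66 to 59 bases before the gene start of JUN and 50 to 43 bases before that of ATF3, counted back from the end of the printed sequences, an octamer held by 834 of 35116 promoters (2.37%). JUND held TGACGTCA 200 to 193 bases before its gene start, as did 1.65% of promoters. TGACTCA, held by 4.2% of promoters, and the CArG box, held by 1.16%, were in none of the 8 windows, and the windows of JUNB, FOS, FOSB, FOSL2, and BATF held none of the 4 motifs. Each gene was searched in a single window, which for ATF3 lies at the outermost annotated start of the gene. Other starts of a gene, and sites farther than 250 bases before a start, were not searched. A match or an absence thus holds for the window alone. Which start the transcripts came from was not tested. A match of letters is a description of the window and not evidence of binding.

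AP-1 genes moved in both directions in vemurafenib. In COLO858, JUN, ATF3, and, at 48 h, FOSL2 rose, while FOSL1, BATF3, and, at 48 h, FOS fell. In MMACSF, FOSL1 and, at 48 h, FOS fell. No AP-1 gene passed the test for a rise there, although JUN was higher in every drug-treated library than in the DMSO libraries. With the replicate number in the fit, an alternative given at the end, more AP-1 genes were called in MMACSF at both times. Differences were tested with limma on log2(FPKM + 1), over all genes whose mean reached 1 FPKM in some group of the line, and called at a Benjamini-Hochberg adjusted p under 0.01. FOSB and BATF in COLO858 and FOSB and BATF3 in MMACSF stayed under that minimum, which left 8 of 10 genes tested in each line. In COLO858 at 24 h 2 of the 8 were higher and 2 lower, where 9.82% of all 12696 genes tested were called, 4.11% as higher and 5.71% as lower. After 48 h there were 3 higher and 3 lower among the AP-1 genes, with 9.47% of all genes called (4.74% higher, 4.73% lower). In MMACSF 1 of 8 was lower and 0 higher at 24 h, where 5.83% of 12599 genes were called (2.22% higher, 3.6% lower). After 48 h 2 of 8 were lower and 0 higher, where 8.83% of all genes were called (3.42% higher, 5.41% lower). The median log2 fold-change of the AP-1 genes tested came to −0.11 and −0.13 for the 2 times of COLO858 and to −0.12 and −0.15 for those of MMACSF, beside 0.057, −0.014, 0.073, and 0.065 over all genes tested. With 2 libraries per group these calls have little room: leaving out 1 of the 6 libraries of COLO858 in turn left 0 to 2 calls at 24 h and 1 to 4 at 48 h, as the share of all genes called fell to between 0.898% and 4.32% at 24 h.

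**Figure D1:**
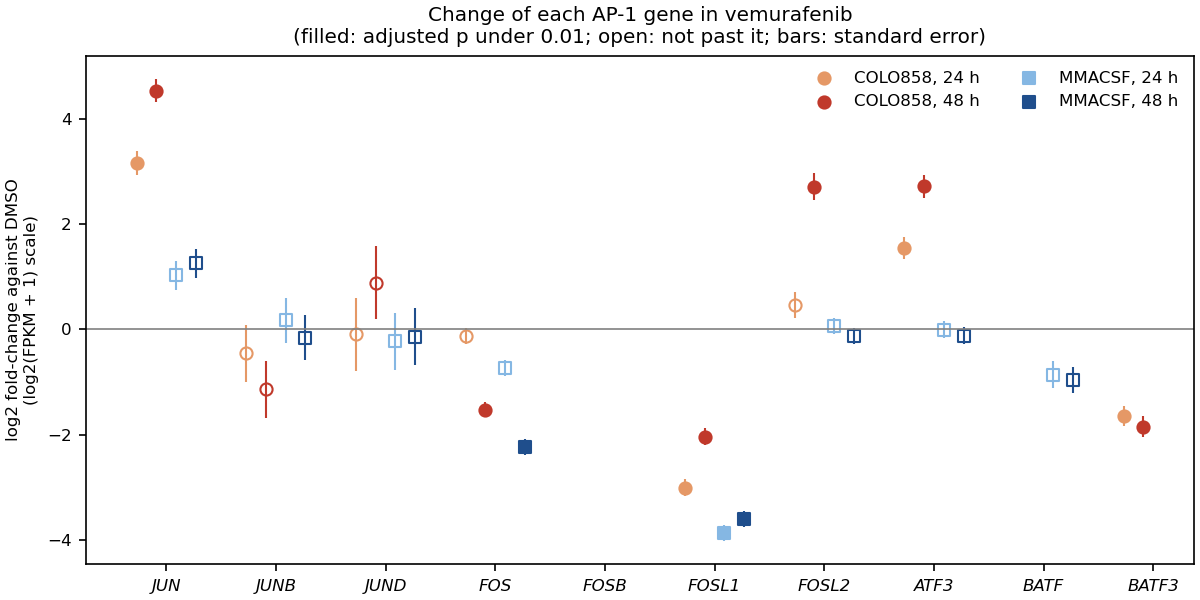
Log2 fold-change of each AP-1 gene against DMSO-treated cells of the same line, on the log2(FPKM + 1) scale, with bars for the standard error from limma. Filled symbols passed an adjusted p under 0.01. JUN in COLO858 reached 4.53 at 48 h, FOSL1 lay below −2 in both lines at both times, and genes under the expression minimum have no symbol.

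JUN, which encodes c-Jun, was the AP-1 gene that rose the most in COLO858. In DMSO-treated COLO858 cells its level was 0.956 and 0.643 FPKM in the 2 replicates. It was 17.5 and 12.8 FPKM at 24 h and 45.6 and 36.0 FPKM at 48 h. The 3 groups did not overlap, and every drug-treated library was above both DMSO libraries. The mean rose from 0.800 ± 0.221 FPKM (SD, n = 2) to 15.2 ± 3.34 and 40.8 ± 6.76 FPKM, which is 19.0-fold and 51.0-fold. On the log2(FPKM + 1) scale, which understates changes from such low levels, the rise was 3.16 ± 0.22 (SE, limma adjusted p = 0.00134) at 24 h and 4.53 ± 0.22 (adjusted p = 0.000552) at 48 h. The 48 h change was number 22 of 12696 genes when ordered from the largest rise. It was called without any 1 library (adjusted p at most 0.00757), while the 24 h rise missed the threshold without any 1 of the 4 libraries compared (adjusted p at most 0.014).

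MMACSF cells had JUN transcripts before treatment. Their DMSO libraries held 11.4 and 9.03 FPKM, the 24 h libraries 28.4 and 16.6 FPKM, and the 48 h libraries 27.8 and 23.7 FPKM. Both drug groups lay above the DMSO group, and they overlapped each other. Without the replicate number in the fit, the log2 fold-changes of 1.03 ± 0.27 at 24 h and 1.26 ± 0.27 at 48 h did not pass the threshold (limma adjusted p = 0.053 and 0.0266). The tables of the lines were scaled separately, so that DMSO levels of 0.800 ± 0.221 FPKM in COLO858 and 10.2 ± 1.70 FPKM in MMACSF are set side by side without a test.

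JUNB and JUND, which encode the other JUN proteins, passed no test in either line without the replicate number in the fit. With that number in the fit, an alternative given at the end, both were called in COLO858 at 48 h. JUNB, often a weaker activator than c-Jun, stood at 29.2 and 15.0 FPKM under DMSO in COLO858, 24.4 and 9.15 FPKM at 24 h, and 11.3 and 7.10 FPKM at 48 h. JUND, the most constantly expressed JUN gene, stood at 34.1 and 13.6, 33.6 and 12.1, and 62.1 and 26.8 FPKM at the same times. Neighbouring groups overlapped for both genes, although both JUNB libraries at 48 h were below both DMSO libraries. The log2 fold-changes at 48 h were −1.14 ± 0.54 for JUNB (limma adjusted p = 0.188) and 0.89 ± 0.69 for JUND (adjusted p = 0.399). Within each replicate number of COLO858, JUNB was lower and JUND higher at 48 h than under DMSO. In MMACSF JUNB was at 7.63 and 4.05 FPKM under DMSO and at 6.01 FPKM in the higher library at 48 h, and JUND ranged from 8.55 to 21.7 FPKM over the 6 libraries, with overlapping groups and adjusted p of 0.797 or more.

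For both genes the wide errors came from a difference between replicates that recurred in every group. Replicate 1 was above replicate 2 in 6 of 6 groups, by 0.49 to 1.33 for JUNB and by 1.00 to 1.41 for JUND on the log2(FPKM + 1) scale. The longest annotated transcripts of JUNB and JUND are 64.9% and 69.9% G and C, at or above 96.4% and 99.6% of the genes tested in COLO858. Over all genes with a known sequence, the median difference of replicate 1 minus replicate 2 was 0.27 to 0.56 in the 10% richest in G and C and −0.50 to −0.29 in the 10% poorest. Whether base composition took part in the JUNB and JUND values was not tested.

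**Figure D2:**
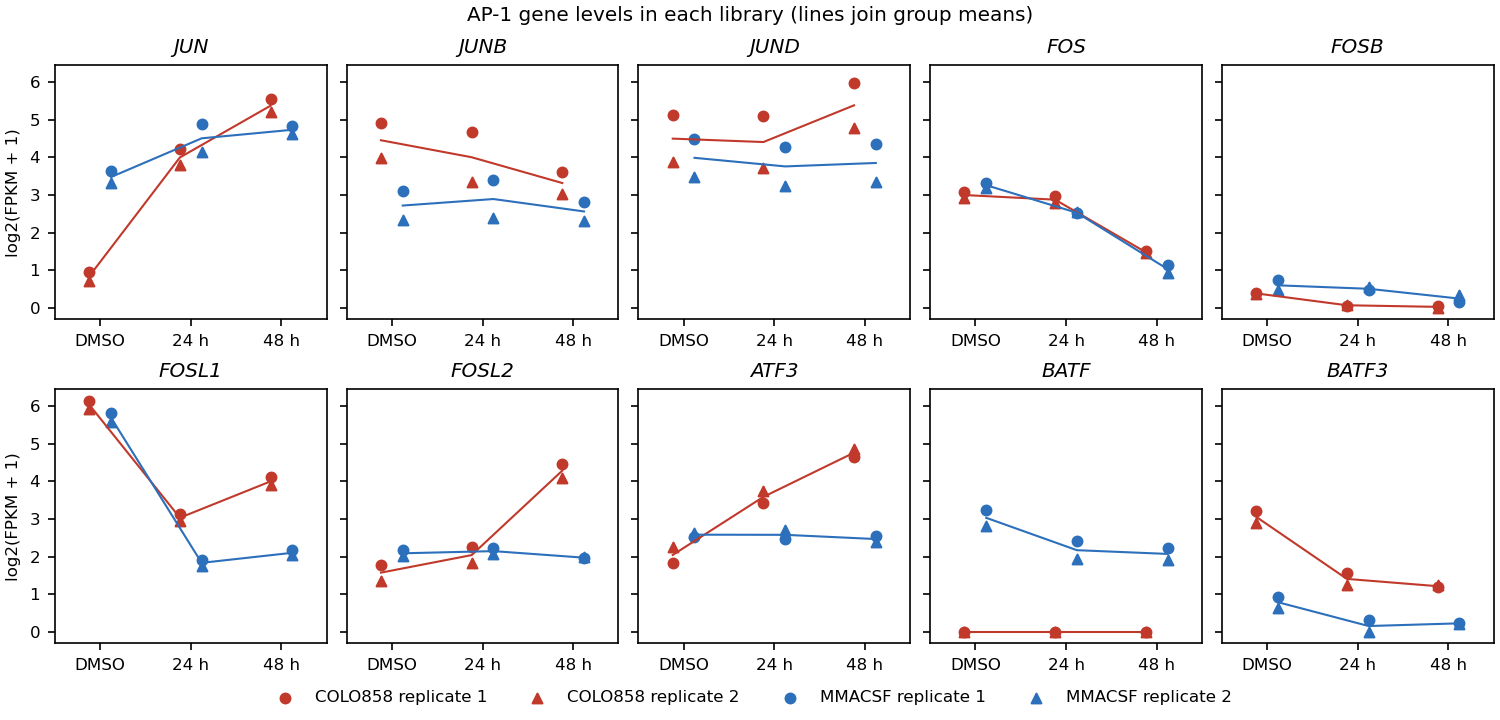
Level of each AP-1 gene in each of the 12 libraries as log2(FPKM + 1), with COLO858 in red, MMACSF in blue, circles for replicate 1, triangles for replicate 2, and lines through the group means. JUN, FOSL2, and ATF3 climbed in COLO858 up to 45.6, 21.2, and 28.3 FPKM at 48 h, FOSL1 dropped in both lines, and the circles of JUNB and JUND lay above the triangles in every group.

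Of the FOS family genes, FOSL1 (Fra-1) was called lower in both lines at both times. It was the most abundant AP-1 transcript in DMSO-treated cells of either line, at 69.8 and 59.9 FPKM in COLO858 and 55.2 and 46.6 FPKM in MMACSF. In COLO858 it was at 7.75 and 6.64 FPKM after 24 h and at 16.2 and 13.8 FPKM after 48 h. All drug-treated libraries lay below the DMSO libraries, with the 48 h pair above the 24 h pair. The mean was 9.01-fold lower at 24 h and 4.31-fold lower at 48 h, with log2 fold-changes of −3.00 ± 0.16 (limma adjusted p = 0.000826) and −2.04 ± 0.16 (adjusted p = 0.00187). In MMACSF it was at 2.78 and 2.35 FPKM after 24 h and 3.49 and 3.10 FPKM after 48 h. There the mean was 19.8-fold and 15.5-fold lower, with log2 fold-changes of −3.86 ± 0.16 (adjusted p = 0.000503) and −3.59 ± 0.16 (adjusted p = 0.000418). The MMACSF calls held without any 1 library (adjusted p at most 0.00735). In COLO858 the 24 h call was lost without replicate 2 at 24 h (adjusted p = 0.0103), and the 48 h call without any 1 of the 4 libraries compared (adjusted p at most 0.0183).

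FOS, the founding member whose product is c-Fos, was lower at 48 h than under DMSO in both lines. COLO858 held 7.43 and 6.61 FPKM under DMSO, 6.83 and 5.91 FPKM at 24 h, and 1.84 and 1.74 FPKM at 48 h. MMACSF held 9.06 and 8.17 FPKM under DMSO, 4.74 and 4.82 FPKM at 24 h, and 1.19 and 0.916 FPKM at 48 h. In COLO858 the DMSO and 24 h groups overlapped, whereas in MMACSF the 3 groups were apart. The log2 fold-change after 48 h was −1.52 ± 0.15 in COLO858 (limma adjusted p = 0.00317) and −2.23 ± 0.15 in MMACSF (adjusted p = 0.00107). At 24 h it was −0.12 ± 0.15 (adjusted p = 0.573) and −0.73 ± 0.15 (adjusted p = 0.0263), neither past the threshold. The COLO858 call at 48 h was lost without any 1 of the line's 6 libraries (adjusted p at most 0.0295), and the MMACSF call without any 1 of the 4 compared (adjusted p at most 0.0165).

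FOSL2 (Fra-2), which like Fra-1 lacks the strong activation domain of c-Fos, was higher in COLO858 at 48 h than under DMSO. Its level was 2.44 and 1.57 FPKM under DMSO, 3.77 and 2.54 FPKM at 24 h, and 21.2 and 16.1 FPKM at 48 h. The 48 h libraries were far above the rest, and the DMSO and 24 h groups did not overlap but lay close. The log2 fold-change against DMSO was 0.47 ± 0.25 at 24 h (limma adjusted p = 0.23) and 2.71 ± 0.25 at 48 h (adjusted p = 0.00279), a 9.30-fold rise in the mean. The 48 h call was lost without any 1 of the 4 libraries compared (adjusted p at most 0.0218). In MMACSF the 6 libraries stayed between 2.90 and 3.70 FPKM. There the 95% interval of the log2 fold-change was −0.32 to 0.44 at 24 h and −0.50 to 0.27 at 48 h.

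FOSB, another immediate early FOS gene, was low throughout and was not tested. It was at 0.313 and 0.301 FPKM under DMSO in COLO858 and at 0.0617 FPKM or less in each drug-treated library, with 1 of them listed at 0. In MMACSF it ranged from 0.106 to 0.662 FPKM, and the DMSO group overlapped the 24 h group but not the 48 h group.

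ATF3, a stress-induced factor that can repress as a homodimer and activate with c-Jun, rose in COLO858 at both times. It was at 2.56 and 3.77 FPKM under DMSO, 9.76 and 12.4 FPKM at 24 h, and 24.2 and 28.3 FPKM at 48 h. The 3 groups were apart, and replicate 2 was the higher one in each, the reverse of JUNB and JUND. On the log2 scale it rose by 1.54 ± 0.22 after 24 h (limma adjusted p = 0.00772) and by 2.72 ± 0.22 after 48 h (adjusted p = 0.00182), an 8.28-fold rise in the mean at 48 h. In MMACSF the level stayed between 4.21 and 5.48 FPKM in all 6 libraries. The 95% interval of its change there was −0.40 to 0.40 at 24 h and −0.52 to 0.28 at 48 h. The COLO858 call at 24 h was lost without any 1 of the line's 6 libraries (adjusted p at most 0.0529), and that at 48 h without any 1 of the 4 compared (adjusted p at most 0.0174).

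BATF and BATF3, smaller factors studied mostly in lymphocytes and dendritic cells, were each expressed mainly in 1 of the lines. BATF was listed at 0 in all 6 COLO858 libraries. In MMACSF it was at 8.45 and 6.06 FPKM under DMSO, 4.32 and 2.81 FPKM at 24 h, and 3.70 and 2.75 FPKM at 48 h. Both drug groups were below the DMSO group, and the log2 fold-changes of −0.86 ± 0.25 and −0.96 ± 0.25 missed the threshold (limma adjusted p = 0.0687 and 0.0463). BATF3 in COLO858 was at 8.34 and 6.40 FPKM under DMSO, 1.96 and 1.37 FPKM at 24 h, and 1.29 and 1.35 FPKM at 48 h. Its drug-treated libraries were all below the DMSO libraries, with log2 fold-changes of −1.65 ± 0.19 (adjusted p = 0.00458) and −1.84 ± 0.19 (adjusted p = 0.00379). Both calls were lost without any 1 of the line's 6 libraries (adjusted p at most 0.0324 and 0.0298). In MMACSF BATF3 was at 0.916 and 0.552 FPKM under DMSO and at 0.236 FPKM or less in the 4 drug-treated libraries, under the minimum for a test. The summed FPKM of 5 immune markers was 82.5 to 89.2 under DMSO, 49.9 to 59.9 at 24 h, and 77.4 to 83.9 at 48 h in MMACSF, and 13.3 to 16.8, 7.69 to 9.31, and 4.31 to 5.80 in COLO858. PTPRC, CD3E, and CD14 were below 1 FPKM in at least 1 library of every group, and the part of immune cells in the BATF and BATF3 values was not tested.

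In DMSO-treated COLO858 cells the order of mean levels ran from FOSL1 through JUND, JUNB, BATF3, FOS, ATF3, FOSL2, and JUN to FOSB and BATF. The libraries of JUND overlapped those of JUNB, and those of BATF3 overlapped those of FOS, while the other neighbours were apart. At 48 h the order was JUND, JUN, ATF3, FOSL2, FOSL1, JUNB, FOS, BATF3, FOSB, and BATF. There JUND overlapped both JUN and ATF3, and FOSL2 overlapped FOSL1. In MMACSF the order under DMSO began with FOSL1, JUND, JUN, FOS, BATF, and JUNB, and at 48 h with JUN, JUND, JUNB, ATF3, and FOSL1. Under DMSO in MMACSF each neighbour from JUND to JUNB overlapped the next, and at 48 h JUN, JUND, and JUNB were apart while JUNB overlapped ATF3. JUN had moved from the eighth place to the second in COLO858 and from the third to the first in MMACSF.

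These shifts changed which genes supplied the transcripts of each family. FOSL1 made up 87.3% and 87.6% of the summed FPKM of FOS, FOSB, FOSL1, and FOSL2 in the DMSO libraries of COLO858, 42.2% and 43.8% at 24 h, and 41.3% and 43.6% at 48 h. FOSL2 made up 3.06% and 2.29%, then 20.5% and 16.8%, then 53.9% and 50.9%. The share of FOS itself was 9.29% and 9.67% under DMSO, 37.1% and 39.0% at 24 h, and 4.69% and 5.50% at 48 h. FOS and FOSL1 thus made up most of these transcripts at 24 h, and FOSL2 and FOSL1 at 48 h. In MMACSF FOSL1 went from 80.7% and 80.1% to 24.0% and 21.8% at 24 h and 45.4% and 42.9% at 48 h. FOSL2 there reached 37.8% and 40.6% at 48 h although its own level did not pass a test, since the levels of FOSL1 and FOS had fallen.

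Among JUN, JUNB, and JUND, the share of JUN in COLO858 was 1.49% and 2.20% under DMSO, 23.2% and 37.7% at 24 h, and 38.3% and 51.6% at 48 h. In MMACSF it was 28.0% and 38.9%, 50.5% and 56.5%, and 52.2% and 64.2%. In both lines the share of JUN was higher in every drug-treated library than in the DMSO libraries. The summed FPKM of the JUN genes over that of the FOS genes was 0.804 and 0.428 under DMSO in COLO858, 4.11 and 2.25 at 24 h, and 3.03 and 2.20 at 48 h. In MMACSF this ratio was 0.595 and 0.399, 4.84 and 2.73, and 6.92 and 5.12. It was below 1 in all 4 DMSO libraries and above 2 in all 8 drug-treated libraries. Summed over all 10 genes, COLO858 held 155 and 108 FPKM under DMSO, 106 and 63.0 FPKM at 24 h, and 184 and 131 FPKM at 48 h, so that the DMSO and 48 h groups overlapped. In MMACSF the sum was 123 and 93.3 FPKM under DMSO and 48.5 to 76.9 FPKM in the drug. Shares and sums are descriptions, without a test, and transcripts need not stand for protein.

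**Figure D3:**
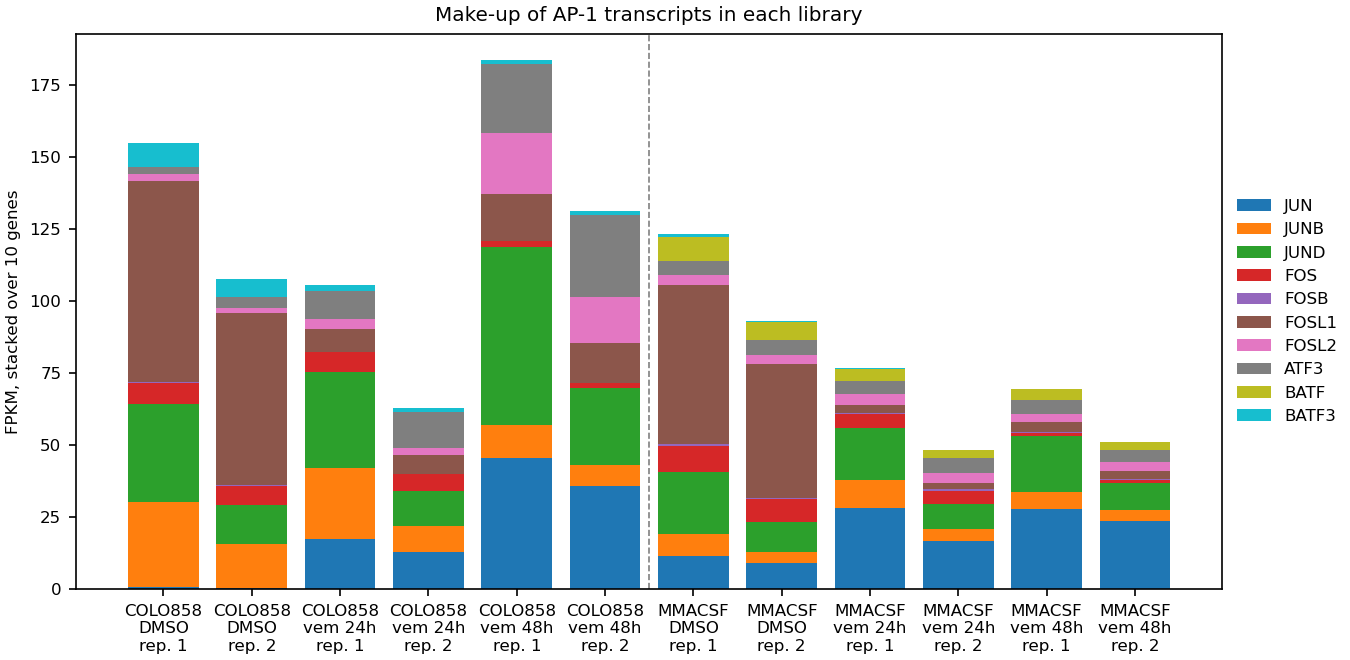
FPKM of the 10 AP-1 genes stacked for each library, with COLO858 left and MMACSF right of the dashed line. The FOSL1 segment, 69.8 FPKM in the first COLO858 library, shrank in all drug-treated libraries, and JUN, ATF3, and FOSL2 filled much of the COLO858 bars at 48 h.

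Without the replicate number in the fit, no AP-1 gene passed the threshold between 24 and 48 h in the drug in either line. In COLO858 the log2 change over this interval was 2.25 ± 0.25 for FOSL2, 1.38 ± 0.22 for JUN, 1.18 ± 0.22 for ATF3, 0.97 ± 0.16 for FOSL1, and −1.40 ± 0.15 for FOS. None passed the threshold (limma adjusted p = 0.012, 0.031, 0.0432, 0.0348, and 0.0106), so 0 of 8 AP-1 genes were called where 1.38% of all genes were. At an unadjusted p under 0.05 these 5 genes stood out, with 20.1% of all genes at that level. In MMACSF 0 of 8 were called, with 0.222% of all genes called, and 1 was under an unadjusted 0.05, beside 6.98% of all genes. That gene was FOS, with a log2 change of −1.50 ± 0.15 (adjusted p = 0.0298).

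The response of COLO858 to vemurafenib was then compared with that of MMACSF, each against its own DMSO libraries, in a limma model over the 12 libraries that tests the difference of the changes. At 48 h, 4 of 9 AP-1 genes tested differed between the lines, all more upward in COLO858, where 7.48% of 13595 genes tested were called in either direction and 4.19% as more upward. The change in COLO858 minus that in MMACSF was 3.28 for JUN (95% interval 2.41 to 4.14, adjusted p = 0.000852) and 2.84 for ATF3 (2.23 to 3.44, adjusted p = 0.000296). It was 2.83 for FOSL2 (2.16 to 3.50, adjusted p = 0.000527) and 1.56 for FOSL1 (1.07 to 2.04, adjusted p = 0.00188). JUN, ATF3, and FOSL2 rose in COLO858. In MMACSF none of them passed the threshold without the replicate number in the fit. Their log2 fold-changes there at 48 h were 1.26 for JUN and −0.12 for both ATF3 and FOSL2. JUN was higher in every drug-treated MMACSF library than under DMSO. FOSL1 fell in both lines and fell by less in COLO858. The differences of JUN, ATF3, and FOSL2 were called without any 1 library (adjusted p at most 0.00576), and that of FOSL1 was lost without replicate 2 of MMACSF at 48 h (adjusted p = 0.0108).

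For the other genes the line difference at 48 h missed the threshold. It was −1.28 for BATF3 (95% interval −1.87 to −0.69, adjusted p = 0.0117). In MMACSF BATF3 averaged 0.734 FPKM under DMSO and 0.168 FPKM at 48 h, levels at which the log2(FPKM + 1) scale understates a fall. The line difference was 0.71 for FOS (0.30 to 1.12, adjusted p = 0.0301) and 0.96 for BATF (0.31 to 1.61, adjusted p = 0.055), which was listed at 0 in COLO858. The intervals of JUNB (−2.76 to 0.80) and JUND (−1.27 to 3.32) included 0. At 24 h only ATF3 was called, with a difference of 1.55 (0.95 to 2.15, adjusted p = 0.00924) where 3.71% of all genes were called, and the call was lost without any 1 of the 12 libraries (adjusted p from 0.0113 to 0.0403). JUN differed by 2.13 ± 0.38 (SE, adjusted p = 0.0113), and of the 12 libraries left out in turn it passed without MMACSF replicate 1 at 24 h alone (2.50, adjusted p = 0.00756). Of the changes from 24 to 48 h, that of FOSL2 differed between the lines, by 2.42 (1.75 to 3.09, adjusted p = 0.00228) where 2.96% of all genes were called. This call was lost without MMACSF replicate 1 at 24 h, or replicate 1 or 2 at 48 h (adjusted p = 0.0119, 0.0145, and 0.0133).

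**Figure D4:**
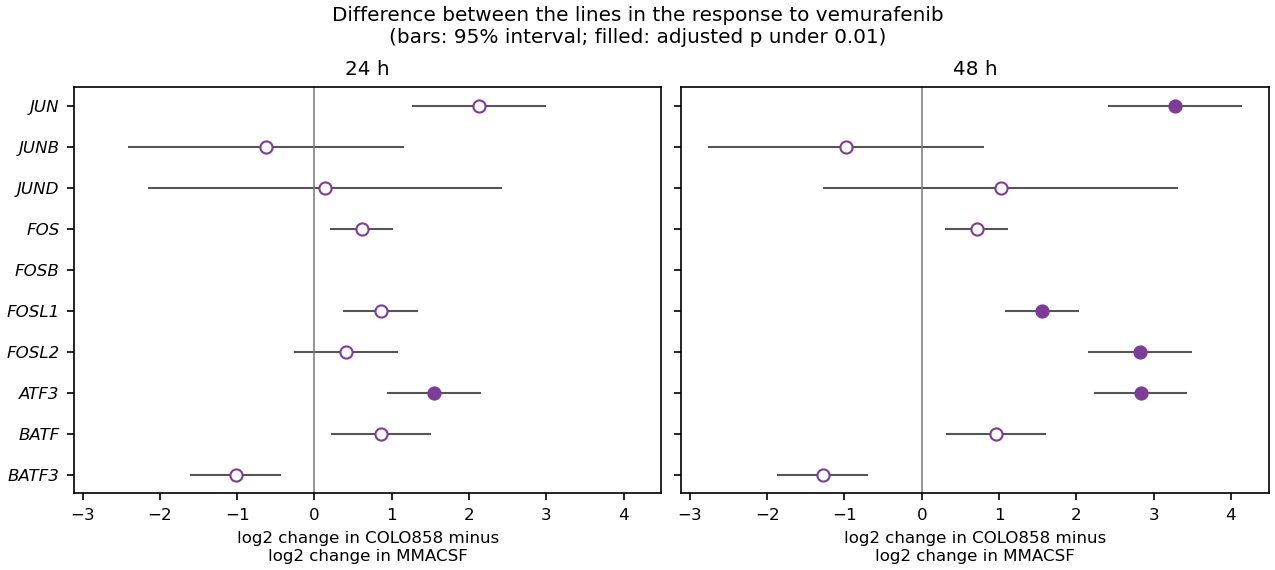
Change in COLO858 minus change in MMACSF for each AP-1 gene at 24 h (left) and 48 h (right), on the log2(FPKM + 1) scale, with 95% intervals from limma and filled circles at an adjusted p under 0.01. At 48 h JUN, FOSL1, FOSL2, and ATF3 lay above 0, at 3.28, 1.56, 2.83, and 2.84, and FOSB was not tested.

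The genes whose levels followed JUN and FOSL1 most closely were found by Pearson's correlation of log2(FPKM + 1) centred on the mean of each line, over 12 libraries and 11700 genes tested in both lines. These are descriptions over libraries that share their treatments, without a test. Closest to JUN were PINK1 (r = 0.991), COL16A1 (0.991), ADD1 (0.989), C15orf52 (0.985), and DLX5 (0.984). DLX5, for example, averaged 1.80 FPKM in DMSO-treated COLO858 cells, 17.7 FPKM at 24 h, and 43.5 FPKM at 48 h, and 7.63, 27.1, and 26.1 FPKM in MMACSF. Closest to FOSL1 were FDPS (r = 0.993), AEN (0.992), HNRNPAB (0.991), TCOF1 (0.987), and DUSP6 (0.987). DUSP6 averaged 117, 41.9, and 60.5 FPKM in COLO858 and 40.7, 12.2, and 10.9 FPKM in MMACSF. Like FOSL1, its mean was higher at 48 h than at 24 h in COLO858. Among the AP-1 genes themselves, ATF3 had a correlation of 0.900 with JUN, FOSL2 one of 0.793, and FOSL1 one of −0.655.

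Other basic leucine zipper factors, many of which can share partners or sites with AP-1, were counted beside the shares of all genes called, 9.82% and 9.47% at 24 and 48 h in COLO858 and 5.83% and 8.83% in MMACSF. Of 27 tested in COLO858, 1 rose and 2 fell at 24 h, and 2 rose and 2 fell at 48 h. Of 26 tested in MMACSF, 1 rose and 2 fell, then 2 rose and 2 fell. MAF, a large Maf factor, had a mean of 0.112 FPKM in DMSO-treated COLO858 cells and 3.59 FPKM after 24 h (log2 fold-change 2.05, limma adjusted p = 0.00145) and went from 7.95 to 22.3 FPKM in MMACSF (1.38, adjusted p = 0.00424). MAFF, a small Maf protein without an activation domain, fell from 148 to 8.27 FPKM at 24 h in MMACSF (−4.01, adjusted p = 0.000433) and from 11.3 to 3.07 FPKM in COLO858 (−1.58, adjusted p = 0.00761). In COLO858 CREB5 reached 8.67 FPKM after 48 h, from 0.480 FPKM under DMSO (2.70, adjusted p = 0.00156), and was at 3.97 and 4.11 FPKM in MMACSF.

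Kinases, scaffolds, and phosphatases of the JNK and p38 cascades, which act on c-Jun and ATF2, were counted likewise. Of all genes, 9.82% and 9.47% were called in COLO858 and 5.83% and 8.83% in MMACSF. Of 30 tested in COLO858, 3 rose and 1 fell at 24 h, and 4 rose and 0 fell at 48 h. There 4.11% and 4.74% of all genes were called as higher and 5.71% and 4.73% as lower. Of 29 tested in MMACSF, 1 rose and 1 fell, then 1 rose and 2 fell. There 2.22% and 3.42% of all genes were higher and 3.6% and 5.41% lower. MAP3K3 rose at both times in both lines, from 8.16 to 25.2 and 22.7 FPKM in COLO858 and from 16.8 to 42.6 and 45.5 FPKM in MMACSF. MAP3K1, an activator of the JNK branch, fell from 20.7 to 5.82 FPKM at 24 h in COLO858 (log2 fold-change −1.67, limma adjusted p = 0.00569). DUSP8, a phosphatase of JNK and p38, reached 6.39 FPKM after 48 h in COLO858, from 0.301 FPKM under DMSO (2.50, adjusted p = 0.00302). MAP2K3, a p38 activator, fell from 29.6 to 10.0 FPKM at 24 h in MMACSF (−1.48, adjusted p = 0.00708). The kinase genes MAPK8 and MAPK9, which encode JNK, were not called in either line at 48 h (adjusted p from 0.294 to 0.849).

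Transcription factors at the FOS and JUN promoters, ERK and RSK kinases, and ubiquitin ligase parts that act on c-Jun were counted in the same way. Of 18 tested in COLO858, 1 fell at 24 h and 2 at 48 h, and 0 rose, where 9.82% and 9.47% of all genes were called. In MMACSF limma called 0 of 19 at either time (4 and 2 of 19 at an unadjusted p under 0.05), with median log2 fold-changes of −0.067 and 0.0087 beside 0.073 and 0.065 over all genes tested, of which 5.83% and 8.83% were called. In COLO858 the genes called were ELK3, an ETS factor that fell from 20.9 to 11.3 and 10.8 FPKM, and, at 48 h, RPS6KA1, which encodes an RSK kinase and fell from 10.3 to 3.87 FPKM.

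Other immediate early genes, which share their growth factor induction with FOS, fell more often than they rose. Of 21 tested in COLO858, 3 rose and 8 fell at 24 h, and 3 rose and 7 fell at 48 h, with medians of −0.64 and −0.69, where 4.11% and 4.74% of all genes were called as higher and 5.71% and 4.73% as lower. Of 22 tested in MMACSF, 0 rose and 6 fell, then 0 rose and 7 fell, with medians of −0.54 and −0.44, where 2.22% and 3.42% of all genes were higher and 3.6% and 5.41% lower. EGR1 fell from 15.0 to 0.664 FPKM at 24 h in COLO858 (log2 fold-change −3.27, limma adjusted p = 0.000595) and from 4.42 to 0.287 FPKM in MMACSF (−2.09, adjusted p = 0.00441). NR4A3, a nuclear receptor, fell from 9.03 to 1.02 FPKM in MMACSF (−2.32, adjusted p = 0.00157). CYR61, a secreted matrix protein, ran the other way in COLO858, with 2.38 FPKM under DMSO, 16.5 FPKM after 24 h, and 58.5 FPKM after 48 h (4.14 and adjusted p = 0.000249 for the latter), and was at 4.80, 7.92, and 5.60 FPKM in MMACSF.

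Genes with a described AP-1 site or AP-1 dependence in other cell types moved in both directions. Of 23 tested in COLO858, 4 rose and 5 fell at 24 h, and 4 rose and 6 fell at 48 h, where 9.82% and 9.47% of all genes were called. Of 18 tested in MMACSF, 0 rose and 3 fell, then 1 rose and 5 fell, where 5.83% and 8.83% of all genes were called. THBS1, an adhesive glycoprotein, reached 44.7 and 215 FPKM in COLO858 from 1.25 FPKM under DMSO (log2 fold-change 6.59 at 48 h, limma adjusted p = 9.04e-05), and was at 0.261 FPKM or less in MMACSF. CD44, a hyaluronan receptor, rose at 48 h from 245 to 625 FPKM in MMACSF (1.35, adjusted p = 0.00646) and from 7.42 to 69.6 FPKM in COLO858 (3.06, adjusted p = 0.00111). MMP1, a collagenase that is a textbook AP-1 target, fell in COLO858 to 3.83 FPKM after 48 h, from 33.2 FPKM under DMSO (−2.83, adjusted p = 0.00128). CCND1, which encodes cyclin D1, fell in both lines at 24 h, from 442 to 49.2 FPKM in COLO858 and from 176 to 19.9 FPKM in MMACSF. MT2A, a metallothionein, fell in MMACSF from 326 to 15.9 FPKM at 48 h (−4.28, adjusted p = 0.000572), and was at 89.4 and 63.7 FPKM in COLO858. The line difference at 48 h was called for 11 of 24 of these genes, 8 more upward and 3 more downward in COLO858, where 7.48% of all genes were called.

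**Figure D5:**
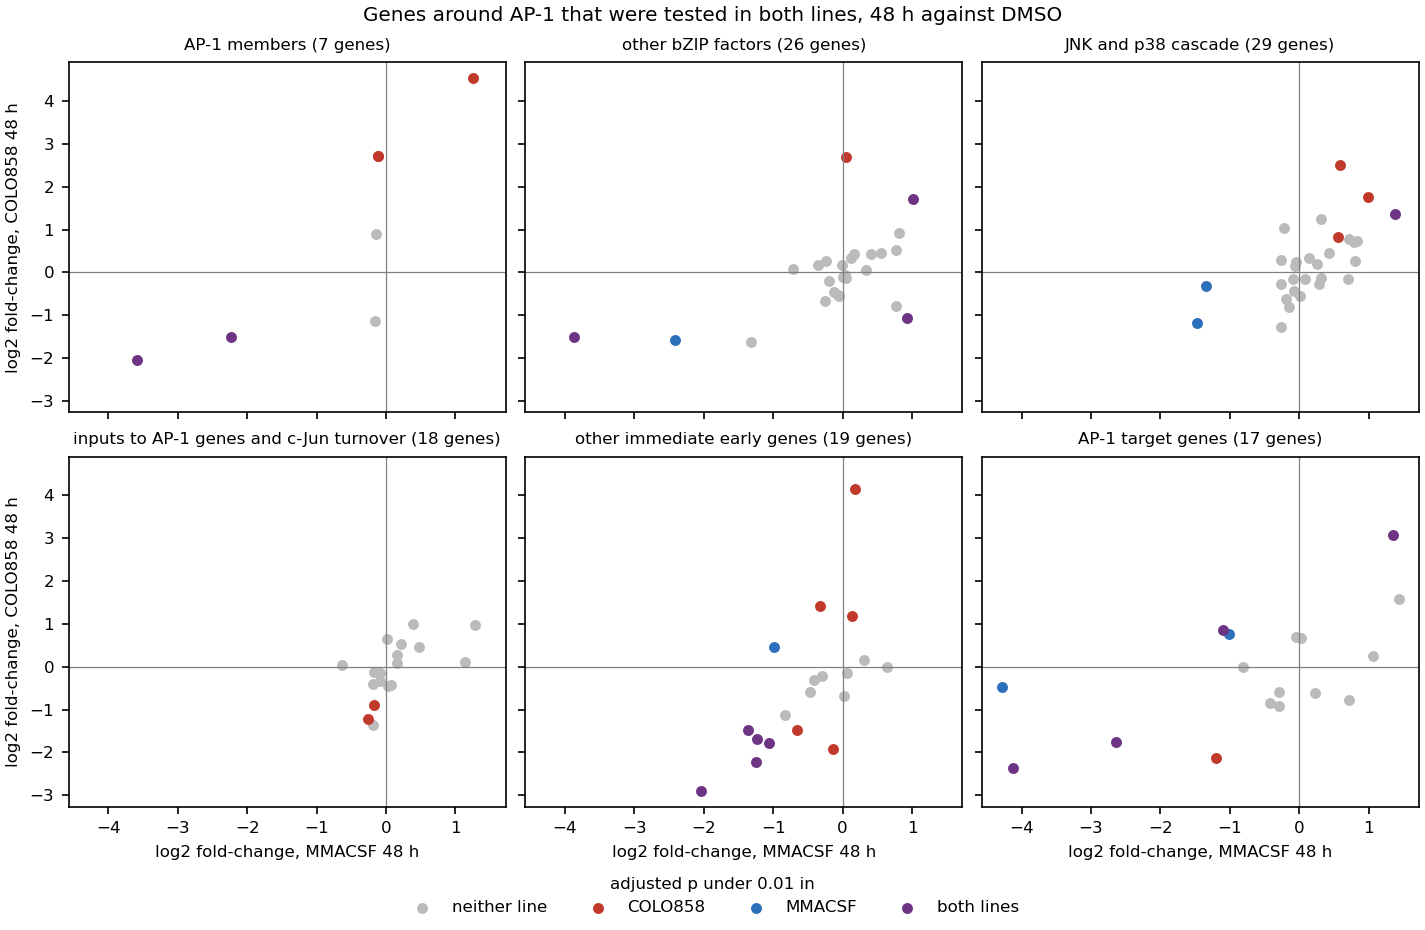
Log2 fold-change at 48 h against DMSO in MMACSF (x axis) and COLO858 (y axis), both on the log2(FPKM + 1) scale, for the AP-1 genes and the lists around them, 1 point a gene tested in both lines, colored by the line in which it passed an adjusted p under 0.01. JUN stood at 1.26 and 4.53, FOSL2 and ATF3 coincide near −0.12 and 2.71, and the lower left holds FOSL1 and FOS of the AP-1 genes and EGR1 of the immediate early genes.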

How the data were processed

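The deposited values were FPKM, 1 table per cell line, which the authors made by mapping single reads of 50 bases to hg19 with TopHat and running Cuffdiff on Galaxy, per the labels and the study's methods. The gene annotation, versions, strand setting, and scaling between libraries are not given in the sources used here, and without the strand setting reads of a gene and of an antisense partner cannot be told apart. The extracts had RNA integrity numbers of at least 9.0. All 12 columns of sample values were used.

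Each line was fitted with limma 3.58.1 in R 4.3.3 on log2(FPKM + 1), with 3 groups and empirical Bayes moderation with a trend. Genes reaching a mean of 1 FPKM in some group were tested, two-sided, with Benjamini-Hochberg adjustment over all of them. Line differences came from a model of 6 groups, over 13595 genes. Since the study's Cuffdiff test needs reads, limma stood in for it with the same threshold of 0.01. The replicates were separate plates of a line, so p-values measure only the spread between plates.

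The 10 genes and all lists were chosen with earlier results of these data known. Genes were named by a rule: all 10 AP-1 genes, the largest rise and fall of each other list among called genes in each drug comparison, and the 5 genes most like JUN and FOSL1. MAPK8, MAPK9, and the markers that are named were chosen after their values were seen. Gene positions and transcripts are from GENCODE v44 on GRCh37. On simulated data with 200 genes changed by a log2 of 2, the fit recovered 161 in COLO858 (12442 genes, 4 false calls), 169 in MMACSF (12464 genes, 1 false), and 143 as line differences (13406 genes, 2 false). The simulated noise was independent in each library, without the shared deviations of same-numbered libraries in the data, so these counts may not hold for the data.

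Alternatives were an added 0.1 or 0.5 FPKM, no minimum or one of 10 FPKM, a replicate block, median-ratio rescaling, no trend, only the groups compared, and leaving out each library. The columns hold no read counts, so depth gives no interval for a single library.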

Additional observations from a re-analysis of the deposited data

Results flagged for a closer look

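For 4 of the AP-1 genes the response to vemurafenib differed between the lines by a test of the difference itself, in the limma model over the 12 libraries with an adjusted p under 0.01. At 48 h the log2 change in COLO858 minus that in MMACSF was 3.28 for JUN, 2.84 for ATF3, 2.83 for FOSL2, and 1.56 for FOSL1. At 24 h it was 1.55 for ATF3. Of the change from 24 to 48 h it was 2.42 for FOSL2. Groups of 2 libraries are too small for a search for outlying libraries, and none was made.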

How the results depend on the processing

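The rise of JUN in COLO858 at 48 h, the fall of FOSL1 in MMACSF at 24 and 48 h, and the line differences of JUN, FOSL2, and ATF3 at 48 h kept their direction and their side of the threshold under every alternative run. Other counts of AP-1 genes called moved. With only the groups compared, the count was 2 in COLO858 at 24 h (4 as reported) and 0 for the line difference at 24 h (1 as reported). For COLO858 from 24 to 48 h it was 1 with an added 0.1 FPKM, 1 with 0.5 FPKM, and 1 without a trend (0 as reported). For MMACSF at 48 h a minimum of 10 FPKM gave 1 (2 as reported), and in COLO858 it gave 3 at 24 h and 4 at 48 h (4 and 6 as reported). FOS in both lines and BATF3 in COLO858 had no group mean of 10 FPKM, so they were not tested under that minimum. For the line difference at 24 h an added 0.5 FPKM gave 2, no minimum 0, and a minimum of 10 FPKM 0 (1 as reported). For that of the change from 24 to 48 h rescaling gave 2 (1 as reported). BATF3 turned direction in the line difference at 24 h with an added 0.1 FPKM, to 0.062, and was not called there.

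Leaving out 1 library in turn gave 0 to 2 calls in COLO858 at 24 h, 1 to 4 at 48 h, and 0 from 24 to 48 h, and 1, 1 to 2, and 0 calls in MMACSF. Line differences gave 0 to 1 calls at 24 h, 3 to 4 at 48 h, and 0 to 1 for the change from 24 to 48 h. Directions turned for changes that were not called. For JUNB the range was −1.11 to 0.21 in COLO858 at 24 h, −0.32 to 0.67 at 24 h, −0.54 to 0.23 at 48 h, and −0.83 to 0.17 from 24 to 48 h in MMACSF, and −1.29 to 0.038 and −1.02 to 0.31 as line differences at 24 h and from 24 to 48 h. For JUND it was −0.79 to 0.61 in COLO858 at 24 h, −0.74 to 0.28, −0.65 to 0.38, and −0.42 to 0.60 in MMACSF at the same times, and −0.57 to 0.84 as a line difference at 24 h. In MMACSF it was −0.031 to 0.15 for FOSL2 and −0.12 to 0.11 for ATF3 at 24 h, and −0.14 to 0.60 for JUN, −0.23 to 0.0065 for ATF3, and −0.34 to 0.14 for BATF from 24 to 48 h, with −0.14 to 0.34 for BATF as a line difference.

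Groups of a line carry the same replicate numbers, and no source says what the numbers pair. Over all genes tested, same-numbered libraries deviated from their groups with correlations of 0.196 to 0.211 for COLO858 and 0.0628 to 0.113 for MMACSF, and, leaving out small RNA genes, of 0.753 to 0.779 and 0.59 to 0.673. With the number as a replicate block the count was 6 in COLO858 from 24 to 48 h, 4 in MMACSF at 24 h and 4 at 48 h, and 6, 8, and 5 for the line differences at 24 h, at 48 h, and from 24 to 48 h. The block made 27 more results of single AP-1 genes pass and 0 fewer. Among these were JUNB and JUND in COLO858 at 48 h (limma adjusted p = 0.00735 and 0.00105) and the line difference of JUND at 48 h (1.02, adjusted p = 0.000365), whereas that of JUNB was not called (adjusted p = 0.027). The share of all genes called rose to 45% in COLO858 at 24 h. Depth is unknown, so low values such as those of FOSB allow no statement on detection.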
